A study of Danio rerio with 33 samples.

Results

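miR-126, miR-143 and miR-145 were followed here across the zebrafish tissues of a small RNA sequencing series. Every row of the known miRNA table named miR-126, miR-143 or miR-145, with any letter or arm, was taken, which gave 6 of 247 rows, namely dre-miR-126a-3p, dre-miR-126a-5p, dre-miR-126b-3p, dre-miR-126b-5p, dre-miR-143 and dre-miR-145. All 6 had reads in every library, between 421 and 99272 counts, and all passed into the tests.

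The 32 libraries were made from wild-type zebrafish of a Singapore strain and fall into 11 groups without any treatment, namely female and male brain, female and male gut, female and male liver, ovary, testis, heart, eye and embryo, with 3 libraries per group and 2 for heart. Adult libraries were made from tissue pooled from 4 to 5 fishes. The embryo group is a mixture of stages at 2.5, 6, 12 and 24 hours post fertilization, about 30 embryos per stage, with juveniles of 15 days, so its values belong to no single stage. The labels give no sex for heart, eye and embryo, and the study's text says that eye and heart came from males.

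Total counts on known miRNAs ranged from 277699 in an ovary library to 11732555 in a heart library. Normalized counts are the deposited values, scaled by 1 factor per library. The tissue labels were checked against miRNAs known to mark cell types. miR-122 (hepatocytes) averaged highest in female liver, miR-202-5p (gonad) in testis and ovary, miR-430a (early embryo) in embryo, and miR-9-5p (neural cells) in brain. The other neural miRNA, miR-124, did not average highest in brain. It had 3325 in eye and 1784 in heart, against 811 in male brain and 923 in female brain. Heart also held 22626 of miR-9-5p. Liver libraries also held the miRNAs taken here as gut epithelium markers. The summed level of miR-192, miR-194a and miR-194b was 97516 to 134299 in male liver and 121161 to 150075 in female liver. It was 236431 to 286946 in male gut and 208330 to 252576 in female gut. These miRNAs were thus not particular to gut, and which cells held them in liver was not tested. The heart libraries went partly against their label. They held 1848 and 1600.4 normalized counts of miR-499, a heart muscle miRNA, against 36.4 to 46.3 in eye, but also 54233 and 66672 of miR-182-5p, a miRNA of retinal sensory cells, against 65422 to 68144 in eye. miR-183, of the same cluster, was also at eye level, with 2052 and 2319 against 1746 to 2021, while miR-96 was lower, with 2797 and 3245 against 15839 to 16551. They are called the libraries labelled heart below, and the part of eye RNA in their values was not tested.

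In mammals miR-126 is carried in an intron of Egfl7, a gene of endothelial cells, and zebrafish and mouse embryos that lack it have leaky vessels. miR-143 and miR-145 are made from 1 cluster and are known from smooth muscle, in the vessel wall and in the wall of the gut, where they take part in setting the contractile state of the cells. miR-126 is therefore often read as a miRNA of vessel lining, and miR-143 and miR-145 as miRNAs of the muscle around vessels and hollow organs. In bulk tissue a lower level can mean fewer cells of a type or less RNA per cell, and these cannot be told apart. In the RefSeq annotation of the GRCz12tu assembly, mir126b lies within egfl7 on chromosome 21. The mir126a hairpin lies on chromosome 8 between pierce1 and fnbp1a, and mir145 lies on chromosome 14 between fbxo38 and csnk1a1. No entry for mir143 was matched in this annotation, so its place beside mir145 was not checked here.

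The 5p rows of the a and b hairpins held nearly the same reads. Their counts differed by at most 27 reads (31388 and 31361 in heart replicate 1) and by at most 0.404% (495 and 497 in embryo replicate 1). Of the 32 libraries, 3 had equal counts on both rows. They therefore carry 1 measurement, given below as miR-126-5p from the dre-miR-126a-5p row, and the 6 rows give 5 separate values.

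miR-143 and miR-145 were highest in gut and lowest in brain. The normalized count of dre-miR-143 was 19894, 22059 and 17319 in female gut and 22296, 23078 and 19460.5 in male gut. In brain it was 1005, 1230.2 and 1134 in females and 1048, 1018 and 1017 in males. Every gut library lay above every library of the other 9 groups, and how many other miRNAs showed such a separation was not counted. In single pairs non-overlap was common. It held for 85.3% of all miRNAs between gut and brain in males and 87% in females. Between gut and liver it held for 57.6% in males and 69.3% in females. miR-143 ranked 8 among the 247 miRNAs by mean level in both gut groups, against 64 in female brain and 62 in male brain.

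dre-miR-145 had 16093, 18078 and 12328 normalized counts in female gut and 21139.8, 16741 and 14380.3 in male gut. Brain had 817, 739 and 1006 in females and 804, 625 and 647 in males. Testis was next to gut for both miRNAs, with 13437, 8531 and 9634 for miR-143 and 11026, 8684 and 8467 for miR-145.

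Between gut and brain the ratio of highest to lowest group mean was 21.0 for miR-143 and 25.2 for miR-145. Over the 148 miRNAs whose group means all reached 10 normalized counts, the median of this ratio was 9.79, and 69.6% of them had a smaller one than miR-143. The other groups spread between these ends. For miR-143 the libraries labelled heart had 7554 and 7071, eye had 4694, 5365 and 4684, ovary had 6124, 6099 and 6793, and embryo had 1962, 2099.7 and 2176. miR-145 reached 5141 and 5137 in the libraries labelled heart, 3520.2, 2347 and 2336 in eye, 6508, 7458 and 8635 in ovary, and 1945, 1939 and 2799 in embryo.

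**Figure D1:**
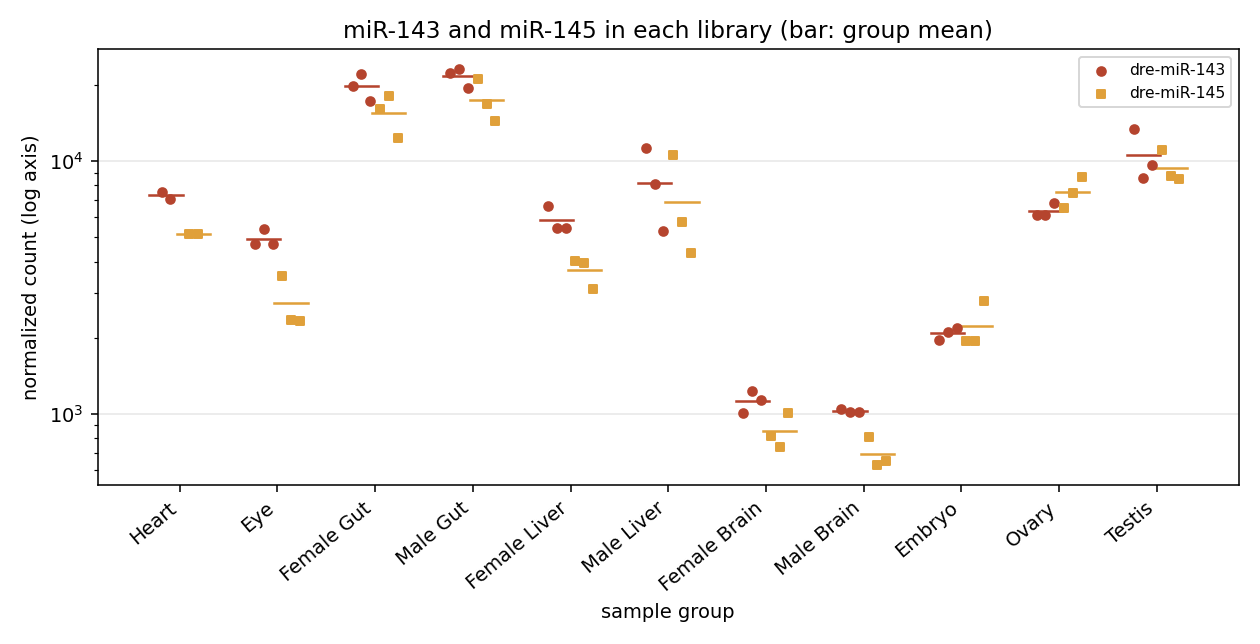
Normalized count (log axis) of miR-143 and miR-145 in each library (points) of the 11 sample groups, with the group mean as a bar. Gut libraries sit between 12328 and 23078, brain libraries between 625 and 1230.2, and the male liver libraries are spread widely for both miRNAs.

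Adjacent groups in the order of mean levels were compared with edgeR's quasi-likelihood test of no change, adjusted over all 238 miRNAs with reads. The share of all miRNAs that passed this test was not counted for single pairs of groups. For miR-143 the order was male gut, female gut, testis, male liver, heart, ovary, female liver, eye, embryo, female brain and male brain. Only 3 of the 10 neighbouring pairs differed, namely female gut and testis (adjusted p = 8.36e-05), eye and embryo (adjusted p = 7.87e-07), and embryo and female brain (adjusted p = 6.07e-05). From testis down to eye no neighbour could be told from the next beyond the spread between libraries. Some groups further apart in this stretch differed, as testis and eye did (adjusted p = 5.25e-06, same test). Others did not, as ovary and eye (adjusted p = 0.0651). For miR-145 only 2 of 10 neighbouring pairs differed, female gut and testis (adjusted p = 0.0106) and embryo and female brain (adjusted p = 9.22e-06).

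miR-126 had another order. dre-miR-126a-3p, the more abundant 3p row, was highest in ovary, with 11302, 14187 and 13402 normalized counts, which ranked it 8 of 247 there. Embryo followed with 6713, 7210.1 and 8045, then the libraries labelled heart with 5882 and 6060.5. The ovary libraries overlapped with no other group, which was not counted for other miRNAs. In single pairs, 66.8% of all miRNAs did not overlap between ovary and testis, and 82.4% between embryo and ovary.

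Brain was again lowest, with 1156, 1266 and 1130.3 in females and 1074, 969 and 934 in males. The other groups lay close together. Female gut had 4130.1, 4759.9 and 3833, male gut had 3397, 3407 and 3272, female liver had 4467, 4914 and 3919, and male liver had 3578, 3437 and 3793. Testis had 4290.4, 3751 and 4019, and eye had 4314, 3925 and 3996. From female liver down to male gut none of the 5 neighbouring pairs differed, while ovary and embryo (adjusted p = 2.15e-07), embryo and heart (adjusted p = 0.0306), heart and female liver (adjusted p = 0.00228) and male gut and female brain (adjusted p = 1.13e-12) did in the quasi-likelihood test. In that test male gut was also lower than female liver (adjusted p = 0.00223), female gut (0.0207), eye (0.024) and testis (0.0379). It did not differ from male liver (adjusted p = 0.47). The order of these close groups depended on the scaling. As a share of counts miR-126a-3p averaged 0.279% in female liver, below eye (0.422%), testis (0.416%) and male liver (0.374%). Male gut had 0.266%.

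dre-miR-126b-3p was lower than dre-miR-126a-3p in every library. It averaged 2185 ± 279 normalized counts in ovary (SD, n = 3), with 1877, 2421 and 2258 in the single libraries, and 1831 and 1884 in the libraries labelled heart. It was lowest in female brain (361, 380.4 and 358) and male brain (430.4, 376 and 344), and testis was low as well, with 706, 566 and 549.

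miR-126-5p did not follow its 3p partners in the gonads and embryo. It was lowest in embryo, with 424, 389.9 and 468, below every brain library. Testis had the highest mean, with 3713, 2232 and 2374, but this group overlapped with the libraries labelled heart (2489 and 2387), and the pair could not be told apart (adjusted p = 0.316, quasi-likelihood test). Only 2 of its 10 neighbouring pairs differed, male liver and female brain (adjusted p = 1.31e-09) and male brain and embryo (adjusted p = 0.0066).

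**Figure D2:**
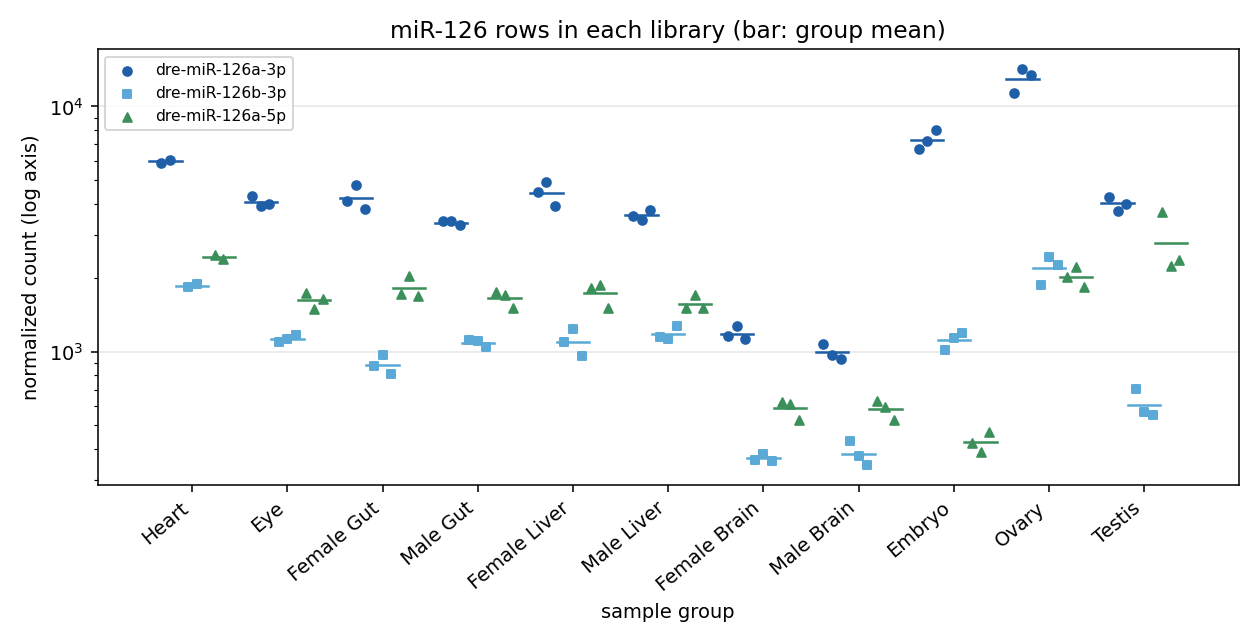
Normalized count (log axis) of dre-miR-126a-3p, dre-miR-126b-3p and dre-miR-126a-5p in each library (points) of the 11 sample groups, with the group mean as a bar. The 3p row of the a hairpin reaches 11302 to 14187 in ovary, and the 5p row is lowest in embryo at 389.9 to 468.

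Calls between groups were made with edgeR's glmTreat, which tests whether a change exceeds 2-fold (log2 of 1), with a Benjamini-Hochberg adjusted p of at most 0.05 over 238 miRNAs. The p-values measure the spread between these libraries, each a pool of fishes. Over the 55 pairs of groups, miR-143 and miR-145 were each called in 31, miR-126a-3p and miR-126-5p in 24 and miR-126b-3p in 19. The median over all miRNAs was 26 pairs, and 46.9% of all miRNA and pair combinations were called. None of the 6 rows was called higher in 1 tissue than in every other tissue. That held for 3.78% of all miRNAs in embryo, 10.5% in brain, 4.62% in liver and 0.84% in ovary, and for 0.42% each in gut, testis, eye and heart.

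Gut stood above brain for all rows in both sexes. In males, 62.2% of all miRNAs were called between gut and brain in either direction, 29.8% of all miRNAs were called higher in gut, and all 6 rows (5 separate values) were higher. miR-143 differed by 4.39 on the log2 scale (standard error 0.208, glmTreat adjusted p = 1.92e-15) and miR-145 by 4.65 (standard error 0.282, adjusted p = 2.2e-13). In females, 64.7% of all miRNAs were called in either direction, 33.2% of all miRNAs were called higher in gut, and again all 6 rows were higher, with 4.14 for miR-143 and 4.18 for miR-145. The miR-126 rows differed less, by 1.50 to 1.76 in males and by 1.27 to 1.84 in females.

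In these gut and brain comparisons 3 calls of miR-126 did not hold in every setting. miR-126b-3p in females (1.27, adjusted p = 0.00711) was lost without female gut replicate 3, at 0.88, at 0.91 with the heart and eye libraries left out, at 0.93 with DESeq2 size factors and at 1.04 with library size alone. miR-126-5p in males (1.50, adjusted p = 0.000366) was lost at 1.15 without male gut replicate 1, at 1.17 without male gut replicate 2 and at 1.07 with library size alone. TMM factors were computed anew when a library was left out, so these fold changes hold a change of scaling too. At the deposited scaling the female gut libraries had 870, 964 and 811 normalized counts of miR-126b-3p. Male gut had 1753.5, 1700 and 1504 of miR-126-5p. The losses without a gut library therefore cannot be read as resting on that library. miR-126b-3p in males was lost with library size alone, at 1.07. Leukocyte miRNAs (miR-142a-3p, miR-142a-5p and miR-223) moved the same way, with a summed level of 2919 to 3251 in male gut and 1995 to 2539 in female gut, against 316 to 367 in male brain and 262 to 326 in female brain. Red blood cell miRNAs (miR-451 and miR-144) did too, with 8742 to 16663 in male gut and 6134 to 8407 in female gut, against 609.6 to 845 in male brain and 626 to 680.3 in female brain. The part of either in the result was not tested.

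Beyond 2-fold, gut and liver differed in miR-143 and miR-145 in females and in no row in males. In females, 23.9% of all miRNAs were called, 14.3% higher in gut, and both smooth muscle miRNAs were higher in gut, as the only 2 rows called. miR-143 averaged 19758 ± 2373 in female gut and 5843 ± 709 in female liver (SD, n = 3 each). The log2 fold change was 1.76, with a standard error of 0.186 (glmTreat adjusted p = 0.000285). miR-145 averaged 15499.5 ± 2921 in female gut and 3697 ± 503 in female liver (SD, n = 3 each). The log2 fold change was 2.07, with a standard error of 0.251 (adjusted p = 0.000187). The log2 fold changes of the miR-126 rows lay between -0.31 and 0.06, and that of -0.31 for miR-126b-3p passed the quasi-likelihood test of no change (adjusted p = 0.024). The leukocyte sum was 1995 to 2539 in female gut and 889 to 1022 in female liver. Red blood cell sums overlapped, at 6134 to 8407 in female gut and 6693 to 9592 in female liver. The part of either in the result was not tested.

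In males the gut and liver values pointed the same way, but no row was called, against 5.46% of all miRNAs. The log2 fold change was 1.39 for miR-143 (standard error 0.184, glmTreat adjusted p = 0.0751) and 1.34 for miR-145 (standard error 0.246, adjusted p = 0.241). Both passed the quasi-likelihood test of no change (adjusted p = 7.92e-07 and 6.06e-05), where the share of all miRNAs passing was not counted. That neither was called depended on 1 male liver library and on the scaling. miR-143 had 11243, 8115 and 5295 normalized counts in male liver, and miR-145 had 10571, 5749.6 and 4322, and without replicate 1, the highest, both were called at 1.69 (adjusted p = 0.00116) and 1.79 (adjusted p = 0.00242). With all libraries and DESeq2 size factors both were called as well, at 1.51 (adjusted p = 0.00281) and 1.46 (adjusted p = 0.0343).

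The same male liver library also had the highest sums of miRNAs taken as markers of other cell types. These sums fell stepwise over the male liver libraries. Its gut epithelium sum was 134299, against 115156 and 97516 in the other male liver libraries, its red blood cell sum was 14521 against 11743 and 8068, and its leukocyte sum was 1980.3 against 1549 and 1336. Its miR-122 level was 31463, against 44970 and 45261. The part of these differences in the miR-143 and miR-145 values was not tested. The miR-126 rows did not show this spread, with 3578, 3437 and 3793 for miR-126a-3p in the same libraries.

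Females and males were compared within 3 tissues, and no row was called beyond 2-fold in any of them. The share of all miRNAs called was 3.78% in brain, 2.94% in gut and 15.1% in liver. The largest difference was that of miR-145 in liver, with 4033, 3938 and 3119 in females and 10571, 5749.6 and 4322 in males. The groups did not overlap, as for 52.1% of all miRNAs, and the log2 fold change was -0.90 (standard error 0.244, glmTreat adjusted p = 0.993). With library size alone it was -1.57 and called (adjusted p = 0.00727), a setting that moved the median of all miRNAs to -0.85 in this comparison. miR-143 in liver had a log2 fold change of -0.49 and its libraries overlapped. Smaller differences passed the quasi-likelihood test of no change, for which the share of all miRNAs passing was not counted. In liver these were miR-145 (adjusted p = 0.00285), miR-143 (adjusted p = 0.0234) and miR-126a-3p (0.30, adjusted p = 0.0233). In gut it was miR-126a-3p (0.34, adjusted p = 0.0207), and in brain none of the rows passed.

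The miR-145 difference between the sexes was itself compared between tissues with an interaction contrast. The female minus male difference in liver was 1.20 lower on the log2 scale than that in brain (standard error 0.344, quasi-likelihood adjusted p = 0.00728), where 37.4% of all miRNAs passed. Without male liver replicate 1 it was -0.75 and no longer passed (adjusted p = 0.0561). The other 4 separate values did not pass between liver and brain, and no row passed between liver and gut or between gut and brain, where 26.5% and 10.1% of all miRNAs passed.

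Beyond 2-fold the gonads differed in the 3p rows of miR-126. Between ovary and testis 30.3% of all miRNAs were called, 16.4% were called higher in ovary, and dre-miR-126a-3p and dre-miR-126b-3p were both higher in ovary. miR-126a-3p averaged 12964 ± 1492 in ovary and 4020.2 ± 269.5 in testis (SD, n = 3 each), which is 1.69 on the log2 scale (standard error 0.113, glmTreat adjusted p = 8.92e-07). miR-126b-3p was higher by 1.85 on that scale (standard error 0.123, adjusted p = 1.38e-07). The other values were not called, with -0.46 for miR-126-5p, which was 0.012 with library size alone, -0.73 for miR-143 and -0.32 for miR-145. In the quasi-likelihood test of no change miR-126-5p (adjusted p = 0.00716) and miR-143 (adjusted p = 0.000974) passed, and miR-145 did not (adjusted p = 0.236). How many of all miRNAs passed that test was not counted. The leukocyte sum was 1631 to 1761 in ovary and 817 to 1056 in testis, the gut epithelium sum was 5472 to 9395 in ovary and 305 to 1629 in testis, and miR-122 averaged 1753 in ovary and 61.2 in testis. Red blood cell sums overlapped, at 4912 to 5977 in ovary and 3642 to 6386 in testis. Their part in the result was not tested.

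Embryo was called lower than ovary in 4 of 6 rows, against 45% of all miRNAs called in either direction and 13.9% called lower. Both 5p rows, which carry 1 measurement, are among these 4. The log2 fold change was -2.24 for miR-126-5p (standard error 0.154, glmTreat adjusted p = 6.52e-09), -1.61 for miR-143 (standard error 0.186, adjusted p = 0.000726) and -1.76 for miR-145 (standard error 0.249, adjusted p = 0.00127). The 3p rows were not called, at -0.82 for miR-126a-3p and -0.98 for miR-126b-3p (glmTreat adjusted p = 0.538). They were called with the heart and eye libraries left out, at -1.20 and -1.35. The embryo and ovary libraries were the same in that setting. Only the TMM factors and the fitted spread were computed anew, so these 2 calls depended on the scaling. With all libraries both passed the quasi-likelihood test of no change (adjusted p = 2.15e-07 and 5.19e-08), where the share of all miRNAs passing was not counted. The red blood cell sum was 2517 to 2733 in embryo and 4912 to 5977 in ovary, and the leukocyte sum was 875 to 1197 in embryo and 1631 to 1761 in ovary. The gut epithelium sum went the other way, with overlap, at 8998 to 11697 in embryo and 5472 to 9395 in ovary. Their part in the result was not tested.

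The libraries labelled heart were above those of eye for all 6 rows (5 separate values), without overlap, as for 63% of all miRNAs, but no row was called, against 4.62% of all miRNAs. The log2 fold changes were 0.55 for miR-126a-3p, 0.59 for miR-126-5p, 0.72 for miR-126b-3p, 0.57 for miR-143 and 0.91 for miR-145. In the quasi-likelihood test of no change the adjusted p lay between 0.000105 for miR-126b-3p and 0.0363 for miR-143. How many of all miRNAs passed that test was not counted. The 2 libraries labelled heart are those that also held the eye miRNAs given above.

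**Figure D3:**
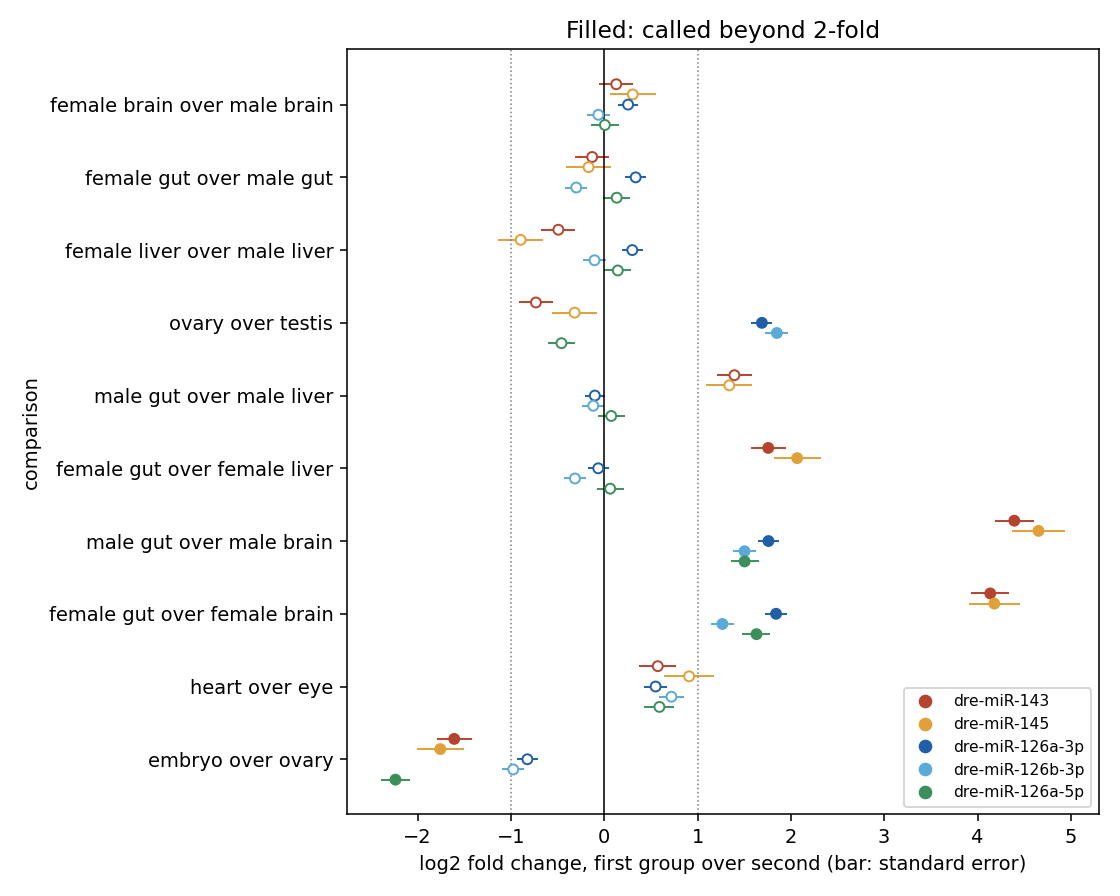
Log2 fold change of 5 separate values (points, with the standard error as a bar) in 10 comparisons, first group over second, with filled points for calls beyond 2-fold and dotted lines at that threshold. miR-143 and miR-145 lie above 4 in gut over brain, and in ovary over testis the 3p values of miR-126 lie at 1.69 and 1.85 and the 5p value at -0.46.

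The 3p and 5p values of miR-126 come from the 2 arms of a hairpin, of which usually 1 is kept in the silencing complex. Since the reads of the 5p row belong to both hairpins, the sum of both 3p rows was set against it, a choice made after the values were seen. There were 18.2, 21.4 and 19.7 reads of 3p per read of 5p in the embryo libraries, 6.57, 7.53 and 8.51 in ovary, and 1.35, 1.93 and 1.92 in testis. All other libraries lay between 2.27 and 3.39. Embryo, ovary and testis each stood apart from the other groups without overlap. The 3p arm was the more abundant in each of the 32 libraries if the 5p row holds all 5p reads of both hairpins. How reads matching both 5p rows were counted is not given in the sources used here. Had they been split between the rows, all these ratios would be lower, and which arm was the more abundant in testis would be uncertain. How many other hairpins showed such a separation was not counted. By the range of group means of each hairpin's own arm ratio, miR-126b ranked 7 and miR-126a 8 among 21 hairpins.

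**Figure D4:**
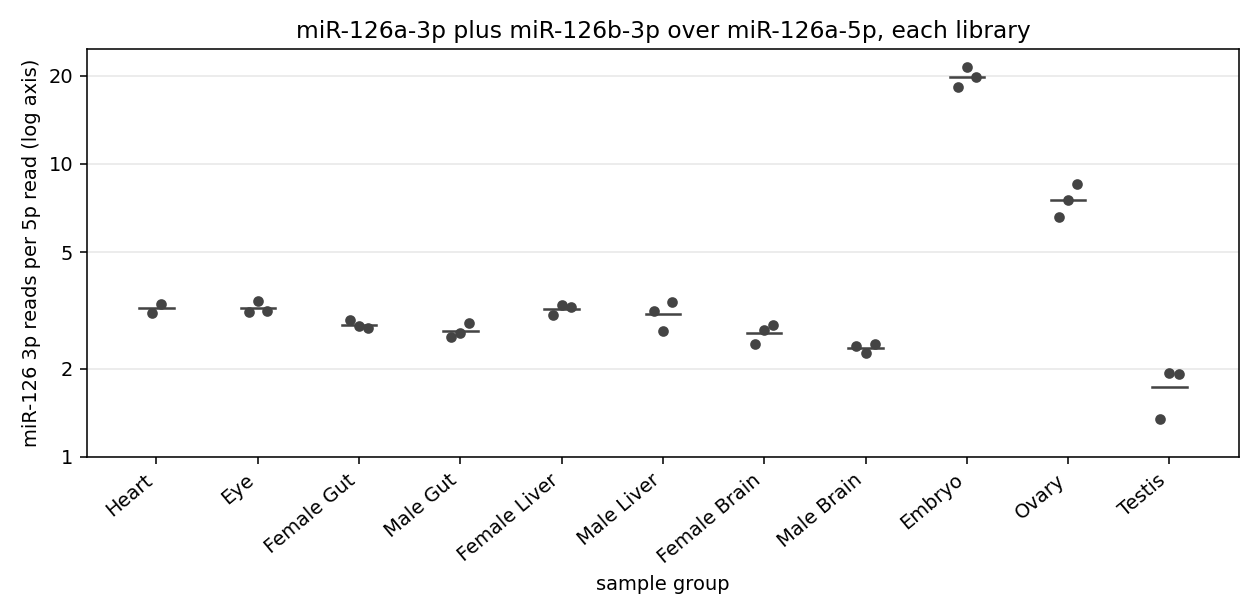
Reads of miR-126a-3p plus miR-126b-3p per read of miR-126-5p (log axis) in each library (points) of the 11 sample groups, with the group mean as a bar. Embryo libraries lie at 18.2 to 21.4 and testis libraries at 1.35 to 1.93.

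The arm ratio of each hairpin was tested with limma on log2 values, together with the other hairpins that have both arms, 21 in all. Between ovary and testis the ratio of the a hairpin differed by 2.11 (standard error 0.124, limma adjusted p = 1.02e-13) and that of the b hairpin by 2.27 (standard error 0.119, adjusted p = 1.47e-14), and 66.7% of the hairpins passed. Between embryo and ovary the differences were 1.42 (adjusted p = 9.1e-10) and 1.26 (adjusted p = 1.23e-09), and 61.9% passed. A shift of arm ratio was thus usual among hairpins in these comparisons. With both 3p rows summed the differences were 2.13 between ovary and testis and 1.40 between embryo and ovary. Between female and male gut only the b hairpin passed, at -0.43 (limma adjusted p = 0.00875), beside 33.3% of the hairpins. Its 5p reads are shared with the a hairpin, so this is no measure of the b hairpin alone. With both 3p rows summed the difference in gut was 0.068 and the libraries overlapped. Neither hairpin passed between the sexes in liver (28.6% of the hairpins) or in brain (0%). Both hairpins missed the threshold between the libraries labelled heart and eye, where 19% of the hairpins passed.

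The paralogs also differed relative to each other. Per 100 reads of miR-126a-3p there were 31.3, 30.1 and 31.7 reads of miR-126b-3p in female brain and 40.1, 38.8 and 36.9 in male brain. Female gut had 21.1, 20.3 and 21.2, against 32.7, 32.3 and 32.0 in male gut. Female liver had 24.4, 25.1 and 24.5, against 31.9, 32.8 and 33.4 in male liver. In each of the 3 tissues every female library lay below every male library. Such non-overlap was common, since 37.4%, 44.5% and 52.1% of single miRNAs did not overlap between the sexes in brain, gut and liver. The share among ratios of other miRNAs was not counted.

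This ratio needs no scaling between libraries, and its spread within a group was small. The log2 difference of female minus male was -0.32 in brain, -0.63 in gut and -0.41 in liver. The ratio was chosen after the values were seen, so these are a description and no test is given. Embryo (15.1, 15.7 and 14.8), ovary (16.6, 17.1 and 16.8) and testis (16.5, 15.1 and 13.7) had the fewest miR-126b-3p reads per 100, with ovary above testis. Eye had 25.3, 28.8 and 29.2, and the libraries labelled heart had 31.1 in both. How reads matching both 3p sequences were divided between the rows is not given in the sources used here, so these rows are uncertain as measures of each paralog.

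**Figure D5:**
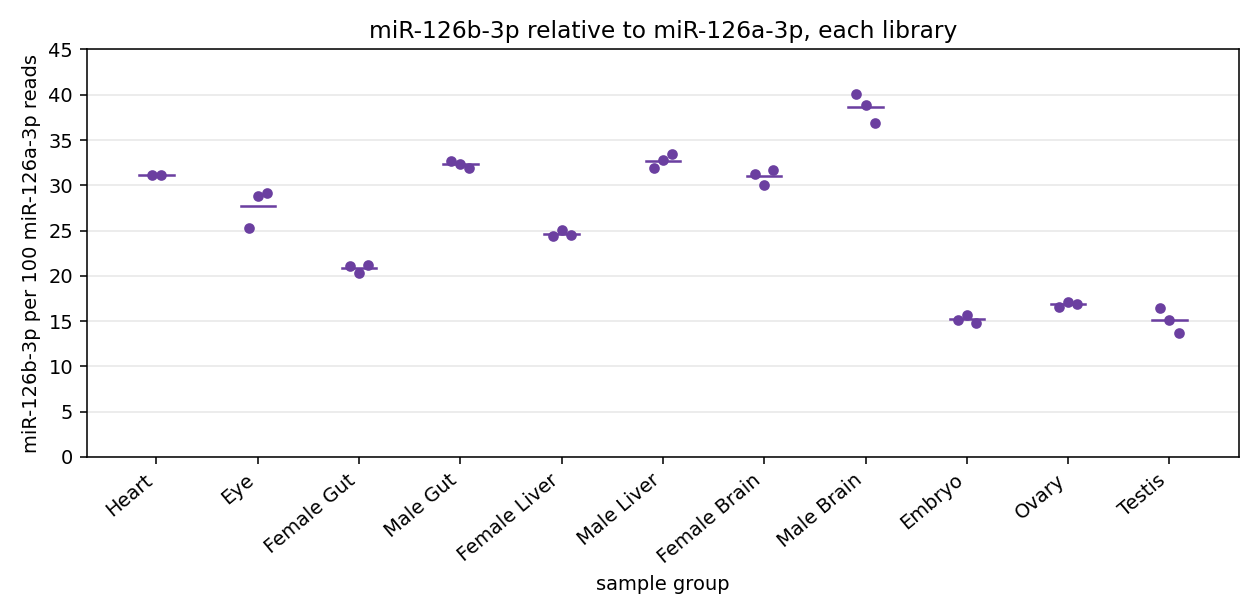
Reads of miR-126b-3p per 100 reads of miR-126a-3p in each library (points) of the 11 sample groups, with the group mean as a bar. Female libraries lie below male libraries in gut, liver and brain, and embryo, ovary and testis lie between 13.7 and 17.1.

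The ratio of miR-145 to miR-143 in single libraries lay between 0.438 in an eye library and 1.29 in an embryo library. It averaged 1.19 ± 0.109 in ovary and 0.906 ± 0.101 in testis (SD, n = 3 each), and the groups did not overlap. In 10 comparisons, the log2 ratio was tested by exact two-sided permutation, and no adjusted p was below 0.667, where 3 libraries against 3 cannot go below 0.1 before adjustment.

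The miRNAs whose group means followed the rows most closely over the 11 groups were found by Pearson correlation of log2 values, given as a description, since the groups share libraries with all miRNAs. For miR-143 it was miR-145 (r = 0.978), then miR-31 (0.923), miR-142a-5p (0.902), miR-142b-5p (0.887) and miR-142a-3p (0.873). For miR-145, after miR-143, it was miR-142a-5p (0.928), miR-31 (0.910), miR-223 (0.904) and miR-142a-3p (0.903). miR-142 and miR-223 are miRNAs of blood leukocytes.

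For miR-126a-3p the closest were miR-457b (0.924), miR-126b-3p (0.897), miR-457a (0.872), miR-214 (0.854) and miR-2188-5p (0.846). miR-126b-3p was closest to miR-2188-5p (0.938), followed by miR-126a-3p, miR-23a (0.857), miR-457b (0.842) and miR-455a (0.792). For miR-126-5p they were miR-26a (0.814), miR-143 (0.811), miR-22a (0.785), miR-144 (0.784) and miR-193a (0.782). These names depended on the measure. With Spearman correlation 3 of the 5 stayed for miR-143, miR-145 and miR-126b-3p, 2 for miR-126a-3p, where miR-430b came first, and 1 for miR-126-5p. Without heart and eye 4 of 5 stayed for miR-143 and miR-145, 3 for miR-126-5p and 2 for each 3p row.

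Other miRNAs known from endothelial cells were not uniform. Of 16 such miRNAs, 6 were higher and 2 lower in gut than in brain in each sex, beside 29.8% of all miRNAs higher and 32.4% lower in males and 33.2% and 31.5% in females. miR-31 had the largest difference, 7.32 in males and 7.34 in females, while miR-221 (-2.19 in males and -2.25 in females) and miR-222a (-2.41 and -2.85) were lower. The level of miR-31 in brain was very low, at means of 7.06 normalized counts in males and 6.99 in females. The size of its fold changes is therefore uncertain. The median log2 fold change of the list was 0.73 in males and 0.47 in females, beside -0.09 and 0.00 over all miRNAs. Between female gut and female liver 3 were higher (miR-10a-5p, miR-10b and miR-31) and miR-92a was lower, beside 14.3% and 9.66% of all miRNAs. Between ovary and testis miR-218a (1.59) and miR-23a (1.33) were higher and miR-92a (-1.59) was lower, beside 16.4% and 13.9% of all miRNAs. Between female and male liver miR-10a-5p was lower, beside 7.56% of all miRNAs, and none was called between the sexes in brain or gut or between male gut and male liver. Embryo had 1 higher (miR-27a) and 2 lower (miR-130a and miR-218a) than ovary, beside 31.1% and 13.9% of all miRNAs. The libraries labelled heart had 3 higher than eye, namely miR-23b (1.72), miR-24 (1.65) and miR-27b (1.49), which are made from a shared cluster, beside 4.2% of all miRNAs.

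Of 11 other miRNAs of smooth muscle and mesenchyme, 3 were higher and 1 lower in gut than in brain in each sex, beside the shares of all miRNAs given above for these comparisons. The higher ones were miR-199-3p, miR-199-5p and miR-214, which in vertebrates share a primary transcript, and miR-199-5p differed by 2.21 in males and 3.34 in females. miR-1, a miRNA of striated muscle, was lower, with log2 fold changes of -1.35 in males and -1.46 in females. None was called between gut and liver in either sex, where miR-143 and miR-145 were called in females. Embryo had 3 higher (miR-1, miR-133a-3p and miR-199-5p) and 2 lower (miR-29a and miR-29b) than ovary, beside 31.1% and 13.9% of all miRNAs, and the libraries labelled heart had miR-1 (2.65) and miR-133a-3p (2.66) higher than eye, beside 4.2%.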

How the data were processed

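Small RNA was sequenced, and the authors deposited counts of reads on 247 known mature miRNAs (miRBase release 19) per library, with a second table of normalized values. In the deposited files each normalized signal equals the count times 1 factor per library, which matched the TMM scaling of edgeR. The members and lists were chosen with earlier results of these data known. Named miRNAs are the 6 rows, the 5 most similar to each separate value, and 2 lists of 16 and 11 miRNAs. Counts of the 238 miRNAs with reads were fitted over 32 libraries with edgeR 4.0.16 (TMM, quasi-likelihood, 1 term per group). Calls used glmTreat at a log2 threshold of 1. Arm ratios used limma 3.58.1 on log2(TMM-scaled CPM + 1) for hairpins with both arms averaging at least 10. The ratio of miR-145 to miR-143 used a pseudocount of 1 and the other ratios none. Scripts were tested on simulated data. Reads carried no molecular identifiers, so depth gives counting error only. Another heart library was not analysed here, since the study removed it for not clustering with the other heart replicates. The 2 that remain were thus kept for their likeness, and the spread within heart may be too small. Alternatives were other scalings, filters, tests and DESeq2 1.42.0, and leaving out libraries. In fits with libraries left out the TMM factors were computed anew. R 4.3.3 and scipy 1.17.1 were used.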

Additional observations from a re-analysis of the deposited data

Results flagged for a closer look

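The difference between female and male miR-145 was lower in liver than in brain by 1.20 on the log2 scale (value -1.20, quasi-likelihood adjusted p = 0.00728), the only row and pair of tissues in which the difference of sex differences passed. It rested on male liver replicate 1, without which it was -0.75 (adjusted p = 0.0561). In groups of 2 or 3 libraries, single libraries were not tested against the others of their group.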

How the results depend on the processing

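Between male gut and male liver no row was called, but 2 were with DESeq2 size factors, 2 with the fold threshold applied after the test and 1 with the DESeq2 test, and leaving out 1 library gave 0 to 2. With library size alone 1 row, miR-145, was called between female and male liver and 3 between male gut and male brain. Library size alone moved the median of all miRNAs to -0.85 in female over male liver, beside -0.13 with TMM, and 2 values changed sign with it, miR-126a-3p in female over male liver (-0.42) and miR-126-5p in ovary over testis (0.012). The cause was not tested. The difference of the miR-145 sex differences between liver and brain ranged from -1.45 to -0.75 when 1 library was left out. Of 53 named values, 5 gained and 3 lost a call in at least 1 alternative, and 43 were unchanged in each. Unchanged means the same direction and side of the threshold. For similar miRNAs only the closest to each separate value was followed, and unchanged means that it stayed among the 5 most similar. The other similar miRNAs named above are not among the 53.

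The replicate numbers were not used to pair the libraries, since in no comparison did every same-numbered pair have a correlation of deviations above 0.1. Between the sexes the correlations were 0.206, 0.049 and 0.251 in brain and 0.233, 0.233 and 0.024 in gut. With so few pairs this cannot show whether libraries were paired. With the replicate number as a block no call of a row changed, and the miR-145 difference between liver and brain was -1.18. The mean female minus male log2 ratio of miR-126b-3p to miR-126a-3p was -0.46 to -0.44 when 1 library was left out. Alternatives on miR-145 sex differences, on this ratio and on heart and eye were chosen after seeing the data. With 2 or 3 libraries per group, changes near 2-fold are at the limit of what was called.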

Other observations

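The ratio of miR-126b-3p to miR-126a-3p was lower in females in brain, gut and liver, with every female library below every male library in 3 of 3 tissues. Among single miRNAs, 37.4%, 44.5% and 52.1% did not overlap between the sexes in these tissues. The mean female minus male log2 difference over these tissues was -0.45. It was 0.20 for the ratio of miR-126a-3p to miR-126-5p, 0.10 for both 3p rows over miR-126-5p, -0.44 for miR-143 over miR-126a-3p and -0.08 for miR-145 over miR-143. These ratios were chosen after the values were seen, except that of miR-145 to miR-143, so the differences are a description with no test. Whether the same fishes gave several tissues is not stated in the labels.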
